A study of Mus musculus with 4 samples.

Results

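The miRNAs described here are both arms of 3 related mouse precursors, miR-28a, miR-151 and miR-708. They were chosen by name and not by a measured value, though earlier results of these data were known. Exact matching of the row names found all 6 among the 869 miRNAs detected in at least 1 sample. The samples were myotubes of C2C12, an immortalized mouse skeletal myoblast line whose labels give the strain background 129/Rej, taken on day 6 of differentiation. The differentiation medium, with horse serum in both groups, held no guanidinoacetic acid (GAA) in the negative control group (NC, 2 samples) and 20 mM GAA, the direct precursor of creatine, in the GAA group (2 samples). The comparison asks whether GAA altered the miRNA profile of these myotubes. The labels do not say whether the samples of a group came from separate cultures, so the spread between them may be technical.

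A miRNA is cut from the stem of a hairpin precursor, and either arm of the stem, named 5p or 3p after the end of the hairpin it lies nearer to, can be loaded into an Argonaute protein. Bases 2 to 8 of the loaded strand, the seed, pair with target mRNAs. The miR-28, miR-151 and miR-708 precursors carry sequence derived from LINE-2, an old family of retrotransposons, and miR-28 and miR-708 are grouped in 1 seed family. All 3 lie inside protein-coding genes and can be transcribed together with them.

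Sequences are shown for the miR-28a and miR-708 arms because the results compare 5p arms that share a seed and differ widely in level. They were matched by name in RefSeq (GRCm38.p6), which gave 4 of the 6 members, and miR-151-5p and miR-151-3p had no entry. They are written 5′ to 3′ with the seed in capitals.
miR-28a-5p: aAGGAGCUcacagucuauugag
miR-708-5p: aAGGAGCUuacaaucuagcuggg
miR-28a-3p: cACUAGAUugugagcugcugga
miR-708-3p: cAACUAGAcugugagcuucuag

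The 5p arms had the same seed, AGGAGCU, which no other of the 1679 mature mouse miRNAs in the table carried (2 of 1679, or 0.119%). Only 717 of the 869 detected miRNAs had an entry there. miR-28c, a miRNA of the same family described below, had none, so its seed was not compared. Aligned from their first bases without gaps, miR-28a-5p and miR-708-5p were identical at 16 of 22 positions. The differences, written as the base of miR-28a-5p, its position counted from 1 at the 5′ end and the base of miR-708-5p, were C9U, G13A, U18G, U19C, G20U and A21G, all outside the seed. The 3p arms were identical at 17 of 21 positions when miR-708-3p was shifted by 1 base. This shift gave them different seeds, ACUAGAU in miR-28a-3p and AACUAGA in miR-708-3p, and neither seed occurred in any other miRNA of the table.

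The precursors lie in introns in the GENCODE M21 annotation of GRCm38. Mir28a is at chr16:24827855-24827940 on the plus strand, in an intron of Lpp, which encodes a LIM-domain protein of focal adhesions and cell contacts. Its arms are at chr16:24827868-24827889 (5p) and chr16:24827908-24827929 (3p). Mir151 is at chr15:73254815-73254882 on the minus strand, in an intron of Ptk2, which encodes focal adhesion kinase, and on the strand opposite to an intron of the antisense gene 1700085D07Rik. Mir708 is at chr7:96249424-96249532 on the plus strand, in an intron of Tenm4, which encodes a teneurin, a transmembrane cell-adhesion protein. Its arms are at chr7:96249450-96249472 (5p) and chr7:96249496-96249517 (3p).

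Levels are given as RPM, the reads of a miRNA per 1000000 mappable reads of its sample, computed back from the deposited log2(RPM + 1). A read was worth 0.177 to 0.211 RPM, and 3 reads 0.530 to 0.634 RPM. The miRNA reads of a sample numbered 1653803 and 2065461 in NC (replicates 1 and 2, the order kept for all values by sample) and 3134241 and 2850828 in GAA. They made up 33.6% and 43.6% of the mappable reads in the NC samples, against 56.3% and 50.4% in the GAA samples. RPM moved with this share for many miRNAs, and its part in the RPM differences was not tested, so each member is also given as a share of the miRNA reads. The 8 muscle miRNAs listed as markers were present in all 4 samples and summed to 17349 to 23785 RPM, most of it from miR-378a-3p and miR-486a-5p. They did not move together: miR-208b-3p (18.7 and 17.8 RPM in NC, 3.05 and 1.41 RPM in GAA), miR-1a-3p, miR-133a-3p, miR-206-3p and miR-499-5p were lower in both GAA samples than in both NC samples, miR-378a-3p was higher in both, and miR-133b-3p and miR-486a-5p overlapped. The 8 miRNAs of other cell types listed as markers summed to 32.1 and 45.4 RPM in NC and to 69.7 and 46.7 RPM in GAA. Most of this sum was miR-9-5p (27.8 to 59.5 RPM), miR-122-5p and miR-223-3p had 0 reads in both NC samples, and the part of these marker differences in the members' values was not tested.

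The 3 precursors stood at very different levels. The arms of miR-151 were the most abundant, with miR-151-3p at rank 29 and miR-151-5p at rank 48 of 869 by mean RPM. miR-28a-5p followed at rank 104, miR-28a-3p at rank 151, miR-708-3p at rank 301 and miR-708-5p at rank 369. In both groups the order was miR-151-3p, miR-151-5p, miR-28a-5p, miR-28a-3p, miR-708-3p and miR-708-5p. No neighbours in this order overlapped, with the exception of the miR-708 arms in NC, at 2.84 and 6.76 RPM (3p) and 1.22 and 3.17 RPM (5p). miR-151-3p alone made up 63.1% and 64.9% of the summed RPM of the 6 members in NC and 69.3% and 64.4% in GAA. miR-28a-5p and miR-708-5p, which share a seed, stood at 138 and 2.19 RPM, respectively, in the NC means and at 225 and 1.52 RPM in the GAA means.

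**Figure D1:**
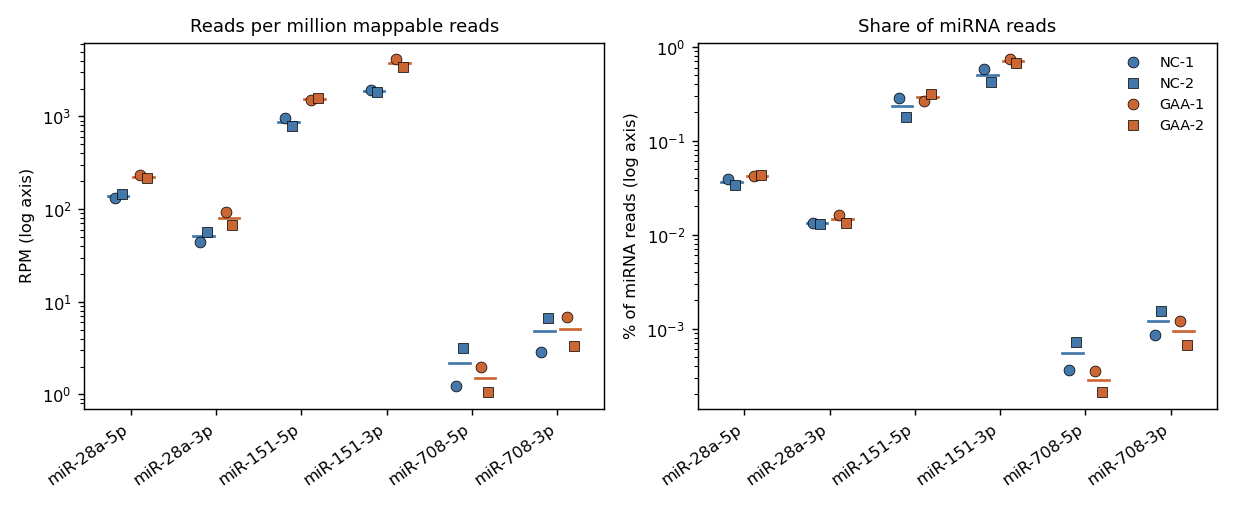
Level of the 6 miRNAs in each sample (circles replicate 1, squares replicate 2; NC blue, GAA orange), with group means as bars. The left panel gives RPM and the right panel the percentage of miRNA reads, both on log axes; both GAA samples lie above both NC samples for the miR-28a and miR-151 arms on the left, but of these only for miR-28a-5p and miR-151-3p on the right.

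miR-151 lies within the focal adhesion kinase gene and has been studied for its part in cell migration. miR-151-3p stood at 1948 and 1845 RPM in the NC samples and at 4133 and 3381 RPM in the GAA samples, from 9592, 8731, 23005 and 19126 reads. Both GAA samples were above both NC samples, and the GAA mean of 3757 ± 532 RPM (SD, n = 2) was 1.98 times the NC mean of 1896 ± 72.7 RPM (SD, n = 2). Its log2 fold change was 0.98 ± 0.19 (SE, 95% interval 0.47 to 1.49, limma adjusted p = 0.205, by Benjamini-Hochberg over all 869 miRNAs). As a share of the miRNA reads, miR-151-3p took 0.580% (95% Wilson interval 0.569% to 0.592%) and 0.423% (0.414% to 0.432%) in NC. In the GAA samples it took 0.734% (0.725% to 0.744%) and 0.671% (0.661% to 0.680%), again above both NC samples. In shares the log2 fold change was 0.50 ± 0.22 (SE, 95% interval 0.01 to 0.99, limma adjusted p = 0.575). The Wilson intervals cover counting error only, and the NC samples lay further apart than these intervals.

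miR-151-5p, the other arm of this precursor, stood at 959 and 784 RPM in the NC samples and at 1499 and 1579 RPM in the GAA samples, from 4721, 3711, 8342 and 8936 reads. The groups did not overlap in RPM, with means of 871 ± 123 in NC and 1539 ± 57.2 in GAA (SD, n = 2). The log2 fold change was 0.83 ± 0.18 (SE, 95% interval 0.33 to 1.32, limma adjusted p = 0.205). Its share of the miRNA reads was 0.285% and 0.180% in NC and 0.266% and 0.313% in GAA. On this scale NC-1 lay between the GAA samples, and the log2 fold change was 0.35 ± 0.24 (SE, limma adjusted p = 0.777).

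miR-28a comes from an intron of Lpp, and miR-28 is known for limiting the growth of B cells. miR-28a-5p stood at 131 and 146 RPM in NC and at 234 and 215 RPM in GAA, from 643, 689, 1303 and 1218 reads. Both GAA samples were above both NC samples, and the log2 fold change was 0.70 ± 0.16 (SE, 95% interval 0.26 to 1.14, limma adjusted p = 0.206). As a share of the miRNA reads it took 0.0389% and 0.0334% in NC and 0.0416% and 0.0427% in GAA. The order of the groups held on this scale, but GAA-1 exceeded NC-1 by less than the NC samples differed from each other. The log2 fold change of the share was 0.23 ± 0.19 (SE, 95% interval -0.20 to 0.65, limma adjusted p = 0.781).

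miR-28a-3p, whose seed differs from that of the 5p arm, stood at 44.7 and 56.8 RPM in NC and at 92.0 and 66.8 RPM in GAA, from 220, 269, 512 and 378 reads. GAA-2 was closer to NC-2 than to GAA-1. The log2 fold change was 0.63 ± 0.25 (SE, 95% interval -0.06 to 1.32, limma adjusted p = 0.290). In shares of the miRNA reads the groups overlapped, with 0.0133% and 0.0130% in NC and 0.0163% and 0.0133% in GAA, and the log2 fold change was 0.16 ± 0.21 (SE, limma adjusted p = 0.781).

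miR-708 lies within Tenm4 and is known as a miRNA raised together with its host gene by endoplasmic reticulum stress. Its arms were near the limit of these libraries. miR-708-5p had 6 and 15 reads in NC and 11 and 6 reads in GAA, or 1.22, 3.17, 1.98 and 1.06 RPM. The highest and the second lowest of these values were both from NC, so the groups overlapped. In RPM the log2 fold change was -0.30 ± 0.42 (SE, 95% interval -1.47 to 0.88, limma adjusted p = 0.664). As a share of the miRNA reads it took 0.000363% (95% Wilson interval 0.000166% to 0.000792%) and 0.000726% (0.000440% to 0.00120%) in NC. In GAA it took 0.000351% (0.000196% to 0.000629%) and 0.000210% (0.0000965% to 0.000459%). Both GAA shares were below both NC shares, but the counting interval of GAA-1 lay inside that of NC-1. For the share the log2 fold change was -0.72 ± 0.49 (SE, limma adjusted p = 0.777).

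miR-708-3p had 14 and 32 reads in NC and 38 and 19 reads in GAA, or 2.84, 6.76, 6.83 and 3.36 RPM. Each group held a low and a high sample, so the groups overlapped. In RPM the log2 fold change was 0.10 ± 0.51 (SE, 95% interval -1.30 to 1.49, limma adjusted p = 0.924). Its share of the miRNA reads was 0.000847% and 0.00155% in NC and 0.00121% and 0.000666% in GAA. The log2 fold change of the share was -0.32 ± 0.43 (SE, limma adjusted p = 0.781). In RPM the interval of miR-708-3p held differences of 2-fold in either direction and that of miR-708-5p a 2-fold lower level. With 2 samples a group, differences of this size were therefore not excluded.

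The study called miRNAs at an FDR below 0.01 and more than 1 on the log2 scale, and none of the 6 members reached this in RPM or in shares. With edgeR on read counts the study did report called miRNAs, among them miR-133a-3p and miR-1a-3p, both lower with GAA. The numbers of calls given here come from another test, limma on log2 values. With limma 0 of all 869 miRNAs did so in RPM (0%) and 0 had an FDR below 0.05. The lowest limma adjusted p in RPM was 0.205, also that of miR-208b-3p with a log2 fold change of -2.62. Not passing in RPM therefore sets no member apart. An unadjusted p under 0.05 was found for 152 miRNAs in RPM (17.5%), among them miR-151-3p, miR-151-5p and miR-28a-5p, and for 70 in shares (8.06%), among them miR-151-3p. Such a p was more frequent without the scarcest miRNAs. When limma was fitted in RPM to only the 365 miRNAs with a mean of at least 10 reads, 119 had one. In shares 1 miRNA was called (0.115%), miR-208b-3p, which is no member. With 2 samples in each group, exact permutation could not give a p below 0.333.

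Both GAA samples lay above both NC samples in RPM for 4 of the 6 members, against 335 of all 869 miRNAs (38.6%) and 167 of the 251 miRNAs with a mean of at least 10 RPM (66.5%), a level the same 4 members exceeded. The reverse order in RPM was seen for 0 of the 6, against 48 of 869 (5.52%) and 6 of the 251 (2.39%). In shares both GAA samples were the higher ones for 2 of the 6 members, miR-28a-5p and miR-151-3p, against 156 of 869 (18%), and the reverse order for 1 member, miR-708-5p, against 117 of 869 (13.5%). Among the 251 more abundant miRNAs these figures were 60 (23.9%) and 49 (19.5%). The median log2 fold change of the 251 more abundant miRNAs was 0.50 in RPM and 0.03 in shares, and that of all 869 was 0.22 and 0.08. The median of the 6 members was 0.66 in RPM and 0.19 in shares. In RPM the log2 fold change of miR-151-3p was above that of 90.8% of the 251 miRNAs and that of miR-151-5p above 84.5%. For miR-28a-5p the figure was 73.7%, and for miR-28a-3p it was 66.9%. The miR-708 arms, themselves below 10 RPM, lay near the other end, above 12.4% (3p) and 2.79% (5p) of the 251. Among all 869 they lay above 31.0% and 4.72%, respectively.

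**Figure D2:**
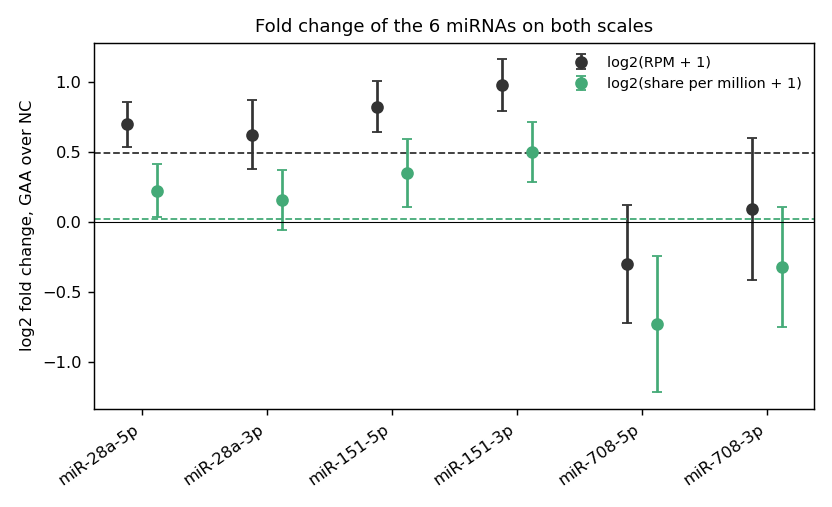
Log2 fold change of GAA over NC for each member on log2(RPM + 1) (black) and on log2(reads per 1000000 miRNA reads + 1) (green), with standard errors from limma as bars. Dashed lines give the median of the 251 miRNAs with a mean of at least 10 RPM, 0.50 and 0.03; every member is lower on the share scale, and the miR-151 and miR-28a arms lie above the dashed line on both.

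**Figure D3:**
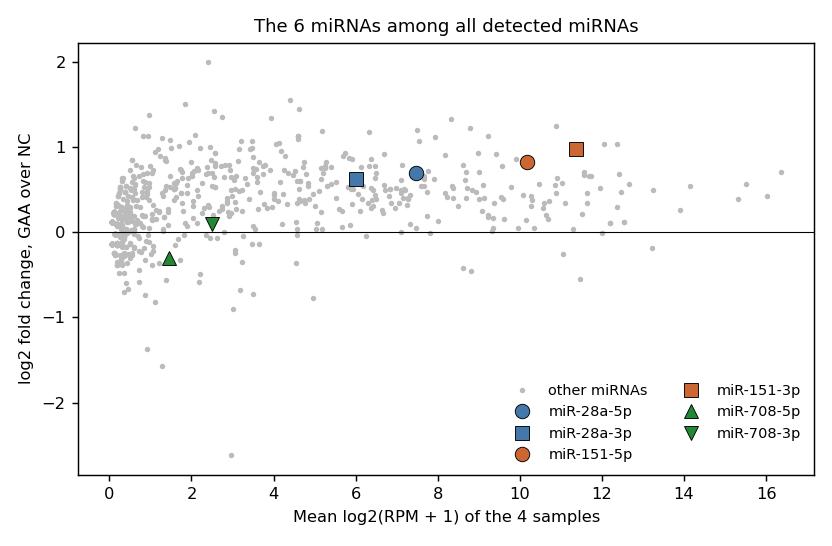
Log2 fold change of GAA over NC against mean log2(RPM + 1) of the 4 samples, with 1 point per miRNA and the 6 members in colour. The miR-151 arms lie high among the abundant miRNAs, at 0.98 and 0.83, and the miR-708 arms lie among the scarce miRNAs, at -0.30 (5p) and 0.10 (3p).

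Summed over the 6 members, the level was 3086 and 2842 RPM in NC and 5966 and 5246 RPM in GAA. The means were 2964 ± 173 and 5606 ± 509 RPM (SD, n = 2), a log2 ratio of 0.92. As a share of the miRNA reads the members summed to 0.919% and 0.651% in NC and to 1.06% and 1.04% in GAA, a log2 ratio of the means of 0.42. The GAA samples were alike in this sum, whereas NC-1 and NC-2 differed from each other by more than NC-1 differed from either GAA sample.

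Both arms of a precursor are measured in the same sample, so their ratio is free of the divisor of the reads apart from the added 1 RPM. The arm in excess was the 5p arm in miR-28a and the 3p arm in miR-151 and miR-708, in each of the 4 samples. The 5p arm held 74.5% and 71.9% of the miR-28a reads in NC and 71.8% and 76.3% in GAA, with 95% Wilson intervals between 69.0% and 78.3% over the 4 samples. In miR-151 it held 33.0% (32.2% to 33.8%) and 29.8% (29.0% to 30.6%) in NC and 26.6% (26.1% to 27.1%) and 31.8% (31.3% to 32.4%) in GAA. Apart from those of NC-1 and GAA-2 these intervals did not overlap, and GAA-1 and GAA-2 lay on either side of NC-2. In miR-708 the 5p arm held 30% (14.5% to 51.9%) and 31.9% (20.4% to 46.2%) in NC and 22.4% (13.0% to 35.9%) and 24% (11.5% to 43.4%) in GAA. Both GAA samples were lower here, well within the counting intervals of so few reads.

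The log2 ratio of the 5p to the 3p arm was 1.43 ± 0.13 in NC and 1.51 ± 0.24 in GAA for miR-28a (SD, n = 2), a difference of 0.07 (95% interval -0.64 to 0.79, adjusted p = 0.983 with limma). For miR-151 it was -1.13 ± 0.15 and -1.28 ± 0.26, a difference of -0.15 (95% interval -0.76 to 0.46, adjusted p = 0.948 with limma). For miR-708 it was -0.84 ± 0.07 and -1.24 ± 0.22, a difference of -0.39 (95% interval -1.26 to 0.48, adjusted p = 0.821 with limma). The fit covered all 251 precursors with rows for both arms, a number that equals that of the abundant miRNAs above by coincidence. Of these 0 (0%) passed the same thresholds, and 19 (7.57%) had an unadjusted p under 0.05 with limma. Groups did not overlap for 1 of the 3 precursors, miR-708, against 87 of the 251 (34.7%) and 35 of the 105 with a mean of at least 10 reads on each arm (33.3%). The median absolute difference over the 251 was 0.27, larger than those of miR-28a and miR-151. For miR-708, whose arms were scarce, the 1 RPM added to each arm drew the log2 ratios towards 0. In reads its 5p arm was 0.429 and 0.469 of the 3p arm in NC and 0.289 and 0.316 in GAA. With 0.1 RPM added in place of 1, the miR-708 difference was -0.54 (adjusted p = 0.892 with limma).

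**Figure D4:**
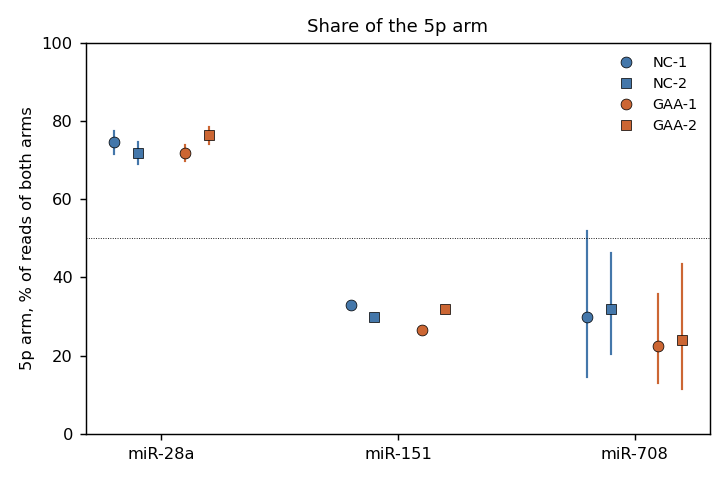
Share of the 5p arm in the reads of both arms of each precursor, in percent, by sample (circles replicate 1, squares replicate 2; NC blue, GAA orange), with 95% Wilson intervals as vertical lines and 50% as a dotted line. miR-28a lies between 71.8% and 76.3%, miR-151 between 26.6% and 33.0%, and miR-708 between 22.4% and 31.9% with wide intervals.

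The reads of miR-28a-5p moved in a fixed proportion with those of miR-28c, a mouse miRNA of the same family that is not a member. miR-28c had 324 and 347.5 reads in NC and 656.5 and 611.5 reads in GAA. These are 0.504, 0.504, 0.504 and 0.502 of the reads of miR-28a-5p in the same samples, and 3 of the 4 numbers of miR-28c reads were not whole. How reads were divided between the 2 rows is not given in the sources used here. Doubled, they come to 648, 695, 1313 and 1223, which exceed the reads of miR-28a-5p by 5 to 10. With the miR-28c reads taken from miR-28a-5p, its log2 fold change in RPM stayed at 0.70, which the fixed proportion made certain. The 5p arm of miR-28a would then exceed its 3p arm by 1.26 to 1.60 times in place of 2.54 to 3.22 times. How much of miR-28a-5p belongs to miR-28c is therefore uncertain. Reads were whole, within 0.02 of a read, for all 6 members in all 4 samples.

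**Figure D5:**
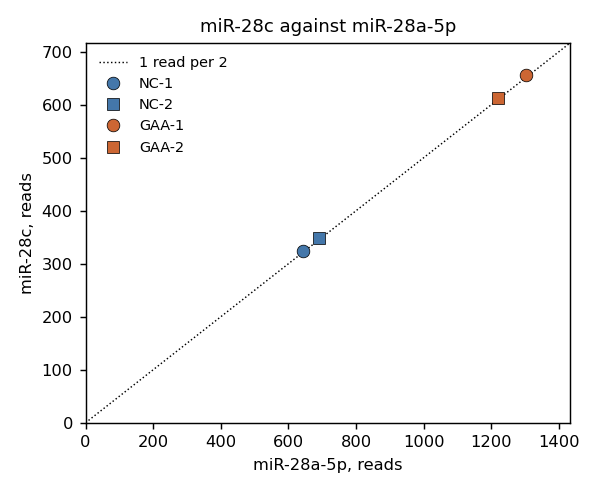
Reads of miR-28c against reads of miR-28a-5p in each sample, with a dotted line at 1 read of miR-28c for every 2 of miR-28a-5p. The 4 samples lie on the line, from 643 and 324 reads in NC-1 to 1303 and 656.5 reads in GAA-1.

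The profiles of the members over the 4 samples were compared with those of all miRNAs with a mean of at least 10 RPM by the Euclidean distance of log2(RPM + 1), each centred on its own mean. The nearest to miR-28a-5p was miR-28c, at a distance of 0.008. That distance follows from the near-fixed proportion of their reads and is no separate likeness. Next came let-7d-5p at 0.03, where the median distance to the 250 miRNAs compared was 0.45. The nearest to miR-28a-3p were miR-125b-5p (0.10) and miR-146a-5p (0.12). The nearest to miR-151-5p were miR-5099 (0.13) and miR-26b-3p (0.14), and the nearest to miR-151-3p were miR-222-5p (0.09) and miR-125a-3p (0.10). The profiles of miR-708-5p, nearest to miR-99a-3p (0.28) and miR-181a-5p (0.30), and of miR-708-3p, nearest to miR-542-3p (0.26) and miR-152-5p (0.29), were high in NC-2 and GAA-1. Among the members, the arms of one precursor were 0.28 (miR-28a), 0.34 (miR-151) and 0.46 (miR-708) apart. The 5p arms that share a seed were 1.17 apart, further than miR-28a-5p from either arm of miR-151 (0.37 for 5p and 0.35 for 3p). The profile of miR-708-5p rested on 6 to 15 reads a sample, and its median distance to the 251 miRNAs compared was 0.996. The value of 1.17 therefore says little about arms that share a seed. All distances were taken in RPM over the same 4 samples, and the part of the miRNA share of the reads in them was not tested.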

How the data were processed

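C2C12 small RNA was analysed in 2 NC and 2 GAA samples, grouped by their labels. The authors mapped filtered reads to GRCm38, counted miRBase miRNAs with miRDeep2 and deposited log2(RPM + 1) for each sample. A miRNA missing from a sample was set to 0. Base and pseudocount were inferred, since the back-transformed values fell on multiples of 1 read for most miRNAs. Leaving aside the most abundant miRNAs, which were not counted, 39 were over 0.02 of a read from a whole number in a sample. The study tested read counts, but the files hold log2 values, so the groups were tested using limma 3.58.1 (R 4.3.3, mean-variance trend, pseudocount 1, no filter), condition being the only term, and with Benjamini-Hochberg adjustment over all 869 miRNAs. A fold change on this scale understates that of scarce miRNAs. Log2 arm ratios were fitted likewise over 251 precursors. Reads served for depth, shares, intervals and other divisors. The fit was tested on simulated data whose changes were larger than that of any member, so that test does not cover changes of the members' size. Named are the members, miRNAs sharing a member's seed or name, the 2 nearest profiles per member, markers and host genes. Members and lists were chosen with earlier results of these data known. Replicates differed by far more than sampling noise (chi-square per degree of freedom 135 in NC and 117 in GAA). No batch or date is given. Alternatives were other divisors, a pseudocount of 0.1, filters on low values, a replicate block and leaving out each sample.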

Additional observations from a re-analysis of the deposited data

How the results depend on the processing

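No member passed the thresholds under any of the 79 alternative fits of the members, and the miR-28a and miR-151 arms were higher in GAA in each of theirs, although dividing by another total lowered them. Leaving out 1 sample at a time, which assumes that the lone sample varies like the other group, gave log2 fold changes of 0.83 to 1.12 for miR-151-3p, 0.68 to 0.97 for miR-151-5p, 0.62 to 0.78 for miR-28a-5p and 0.40 to 0.86 for miR-28a-3p. The lowest values came with median-of-ratios factors, at 0.45, 0.30, 0.17 and 0.11, respectively. The summed level of the 6 members had a log2 ratio of 0.42 by miRNA reads, 0.45 with trimmed mean of M-values factors, 0.38 with median-of-ratios factors and 0.51 when the 5 most abundant miRNAs were left out of the miRNA reads, and 0.82 to 1.01 with samples left out. miR-708-3p turned to -0.32, -0.30, -0.34 and -0.25 under these 4 divisors, to -0.32 with the replicate block and miRNA reads together, and to -0.41 without NC-1 and -0.33 without GAA-1, within a range of -0.41 to 0.60. miR-708-5p turned to 0.16 without NC-2, within -0.75 to 0.16. The arm ratio difference turned to -0.02 without NC-2 and -0.10 without GAA-2 in miR-28a (range -0.10 to 0.24), and to 0.030 without GAA-1 in miR-151 (range -0.34 to 0.030). The cause was not tested. miRNAs past the thresholds numbered 1 under each of the 4 other divisors, miR-208b-3p each time. A shared replicate number pairs nothing in the labels, and same-numbered samples did not deviate together (r = -0.14 across 320 miRNAs). With the replicate block 0 miRNAs and 0 arm ratios passed. With the block and miRNA reads together 6 miRNAs did, among them miR-133a-3p, miR-1a-3p and miR-208b-3p, and none of the 6 was a member. Adding the miR-28c reads to miR-28a-5p or taking them away, chosen after seeing the data, left its log2 fold change at 0.70. miR-28c had 0.502 to 0.504 of the miR-28a-5p reads in every sample. Neither fit, though counted among the 79, could therefore have moved this value much. The mean of at least 10 reads removed miR-708-5p, so that setting gave no value for it or for the miR-708 arm ratio. The miR-708 arms had 6 to 38 reads a sample and the other members 220 to 23005, and with 2 samples a group neither passed.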
